A study of Mus musculus with 3 samples.

Results

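The CXC chemokines are small secreted proteins that guide white blood cells, and 9 of their genes were followed here across the immune cells of the mouse aorta: Cxcl1, Cxcl2, Cxcl3, Cxcl9, Cxcl10, Cxcl13, Cxcl14, Cxcl16 and Pf4 (platelet factor 4, also called CXCL4). They were taken by name and are 9 of the 32285 genes counted. All 9 were detected in each of the 3 libraries. The libraries are single-cell RNA sequencing of cells carrying CD45, the surface protein of white blood cells, which were sorted as live and nucleated from whole aortas with their adventitia. Every library is labelled as ApoE-/- on the C57BL/6J background, a strain that lacks apolipoprotein E and is prone to atherosclerosis. The control library had no supplement. Mice behind the library labelled HHcy drank water with 1.8 g/L homocysteine over 4 weeks, and those behind the western diet library ate that diet over 4 weeks. There is 1 library per group, and how many mice it pools, their sex and their age are not given in the sources used here. Libraries can therefore be set side by side but not tested against each other. The tissue was digested with enzymes for an hour at body temperature before sorting, a step that all 3 libraries share.

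A chemokine is released by a source cell and read by a receptor on the cell that moves. Cxcl1, Cxcl2 and Cxcl3 act on neutrophils through the receptor Cxcr2. Cxcl9 and Cxcl10 are induced by interferons and act on activated T cells and natural killer cells through Cxcr3. Cxcl13 draws B cells through Cxcr5 and is known for building lymphoid follicles, including those in the adventitia of diseased arteries. Cxcl16 sits in the membrane until it is shed, binds Cxcr6, and also takes up oxidised lipoprotein as a scavenger receptor. Pf4 is stored in platelet granules and is also made by some tissue macrophages. Cxcl14 is a chemokine of many epithelia whose receptor is not settled.

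The libraries held 7512 (control), 9753 (labelled HHcy) and 8557 (western diet) cell barcodes with 66789257, 105180370 and 93164076 UMIs, each UMI standing for 1 captured RNA molecule. After filters and the removal of doublets, which were 9.44%, 19.8% and 19.2% of filtered barcodes, 5468, 6544 and 5419 cells were used. Among these cells 36 barcodes were present in more than 1 library. Ptprc, the gene of CD45, had a UMI in 93.5%, 93.7% and 91.0% of the cells, but in only 18.1% to 20% of a fibroblast-like class. Apoe went against the label of 1 library. It stood at 16.3 and 19.3 per 1000000 UMIs in the control and western diet libraries, and the library labelled HHcy had 374. In that library 187 of 1121 macrophage/monocyte-like cells held 10 or more Apoe UMIs, against 1 and 2 cells in the others, and which part of the gene the allele lacks is not given in the sources used here. Values without those cells are given for the macrophage/monocyte-like class and some of its subsets.

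Cells were named from lists of marker genes, none of which is a CXC chemokine or receptor, and the CXC genes were also kept out of the clustering. The largest classes were B cell-like cells (2318, 3830 and 1295 cells in the control, HHcy-labelled and western diet libraries) and macrophage/monocyte-like cells (1846, 1121 and 2608). Neutrophil-like cells numbered 191, 419 and 268. A level is given as CPM, the gene's UMIs per 1000000 UMIs of the class in that library, always in the order control, labelled HHcy, western diet. Intervals are 95% and cover counting error only, not the spread between mice.

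Of the 9 genes, 3 (Cxcl1, Cxcl10 and Pf4) had their highest level in macrophage/monocyte-like cells in all 3 libraries, and Cxcl2 had it in neutrophil-like cells in all 3. For the other 5 genes the highest class differed between libraries. Macrophage/monocyte-like cells still held most UMIs of several of these genes: 83.2%, 87.1% and 91.9% for Cxcl13, 96.4%, 85.6% and 88.3% for Cxcl14, and 60.8%, 59.6% and 70.6% for Cxcl16. For Cxcl9 that share was 35.6%, 61.5% and 40.2%. Only classes with at least 50 cells in a library entered this order.

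**Figure D1:**
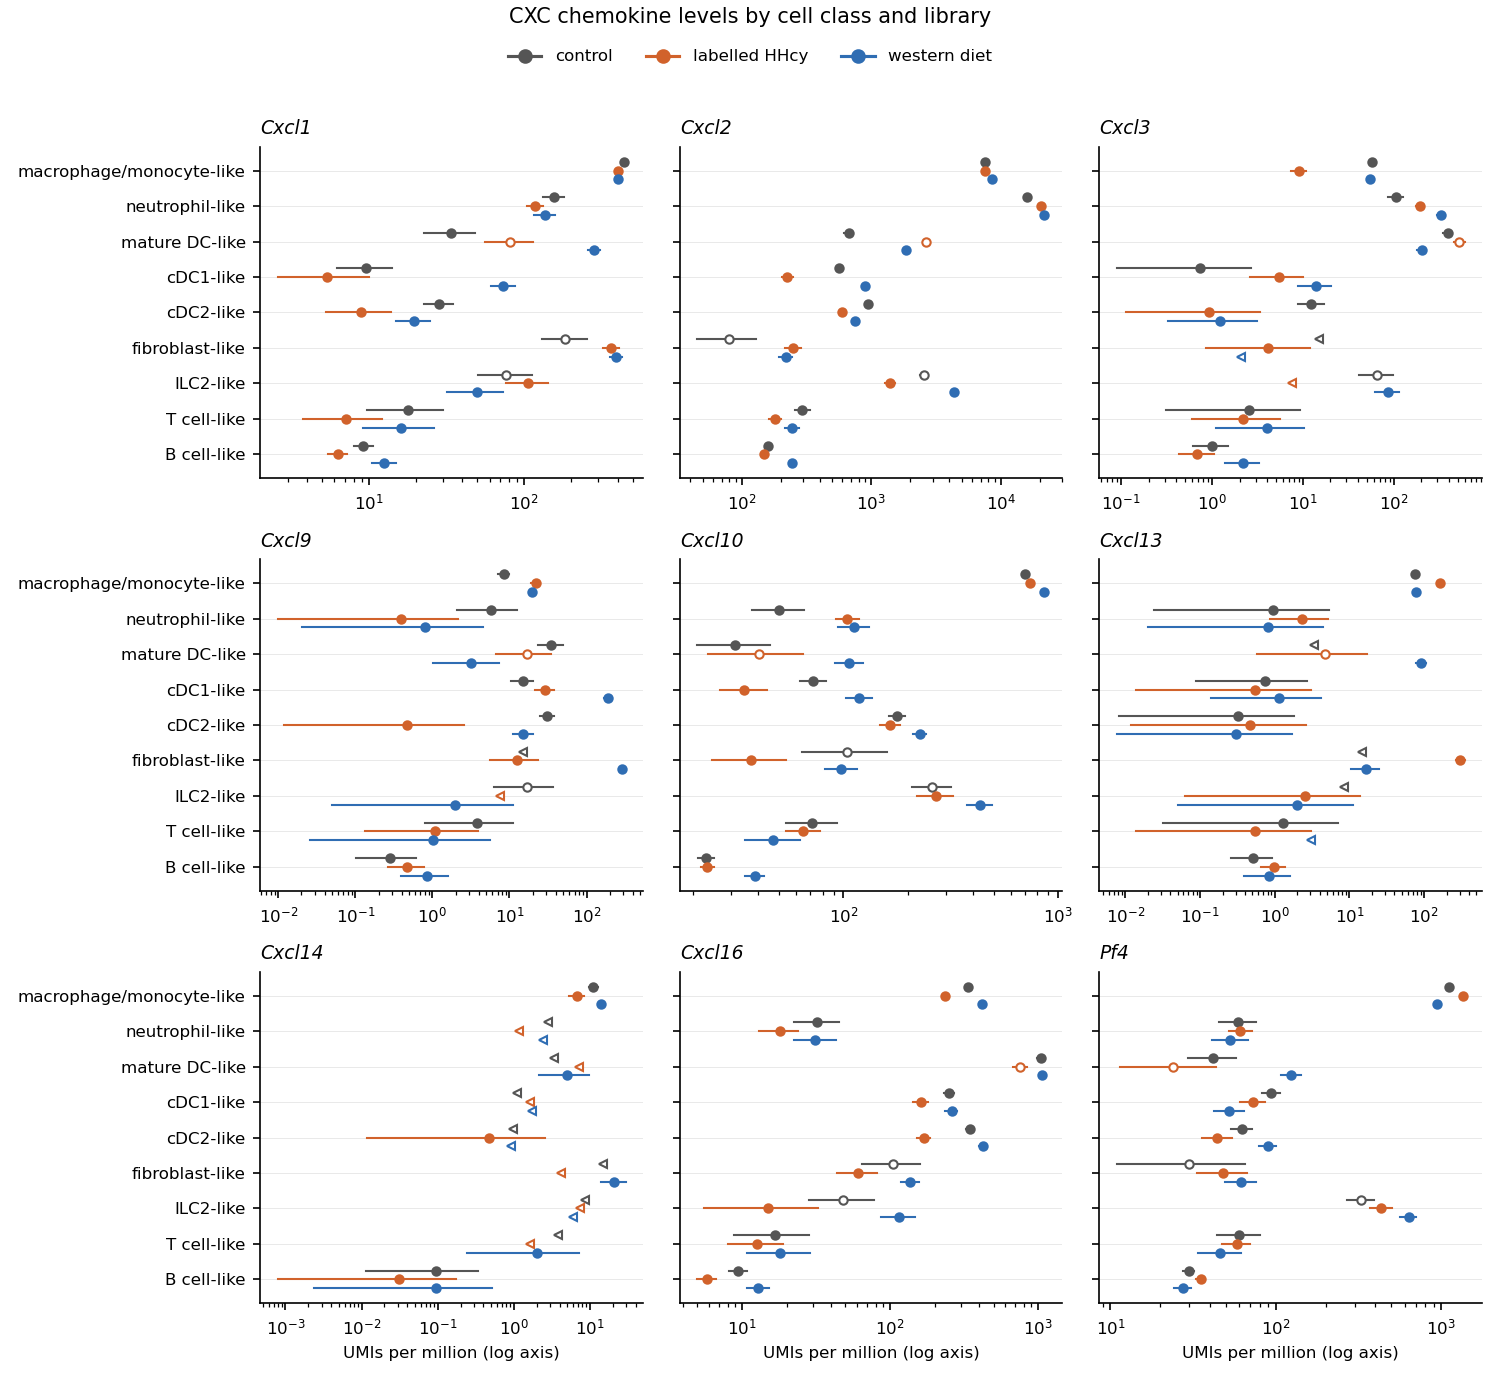
Level of each chemokine (CPM of the class, log axis) by cell class and library, with lines for the 95% Poisson intervals. Filled points are classes of 50 cells or more, open circles classes of 20 to 49 cells, and open triangles classes with 0 UMIs drawn at the level of 3 UMIs. Of the classes drawn with 50 cells or more, macrophage/monocyte-like cells are the highest for Cxcl1, Cxcl10 and Pf4 in every library, and neutrophil-like cells for Cxcl2.

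In several of these cases a single cell set the order. Of the 27 highest classes (9 genes in 3 libraries), 5 held over 50% of the UMIs in 1 cell. In the control library 333 of the 346 Cxcl3 UMIs of mature dendritic cell-like cells lay in 1 cell. In the western diet library 1 fibroblast-like cell held 410 of 424 Cxcl9 UMIs, and 1 mature dendritic cell-like cell held all 145 Cxcl13 UMIs of its class. In the library labelled HHcy 1 fibroblast-like cell held 132 of 222 Cxcl13 UMIs. Leaving out the top cell of every class, a choice made after seeing the data, changed 5 of the 27 and brought the number of genes with their highest level in macrophage/monocyte-like cells of all libraries to 5, adding Cxcl13 and Cxcl14.

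**Figure D2:**
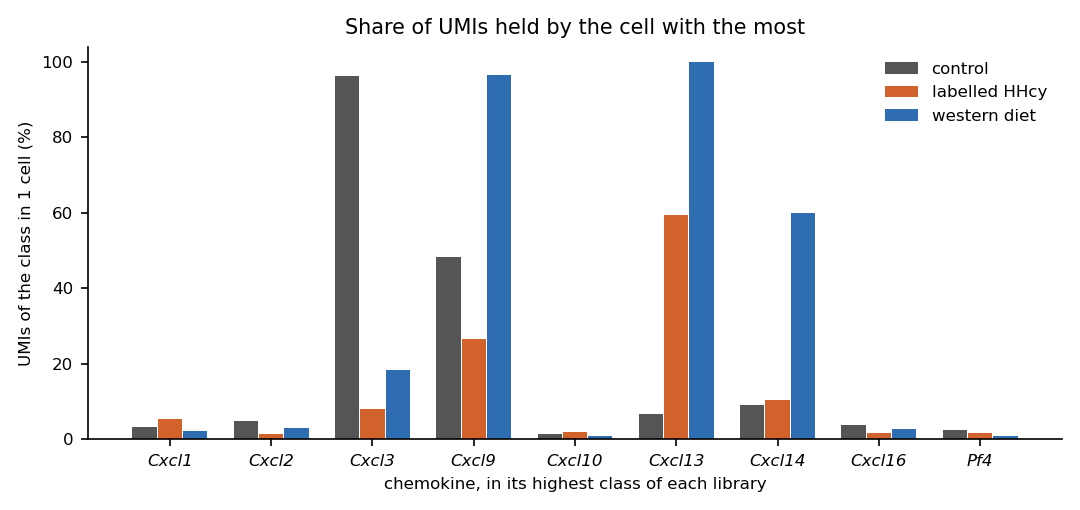
Share of a chemokine's UMIs (percent, linear axis) that lay in the cell with the most, in the class where the gene was highest in each library. The bars for Cxcl3 in the control library, Cxcl13 in the library labelled HHcy, and Cxcl9, Cxcl13 and Cxcl14 in the western diet library exceed 50%, while those of Cxcl1, Cxcl2, Cxcl10, Cxcl16 and Pf4 stay low.

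Cxcl1, Cxcl2 and Cxcl3 lie in the same part of chromosome 5 (GRCm38.p6), as does Pf4, which is nearer to Cxcl3 than Cxcl1 and Cxcl2 are. Cxcl3 (ENSMUSG00000029379) lies at chr5:90786101-90788093, Cxcl1 (ENSMUSG00000029380) at chr5:90891245-90893121 and Cxcl2 (ENSMUSG00000058427) at chr5:90903899-90905938. The 250 bases before each start in RefSeq, read on the plus strand and shown because the 3 genes act on the same receptor but had different sources here, are given below with matches to the kappaB motif GGNNTTTCC (either strand) in capitals. Cxcl1 is at chr5:90890995-90891244, Cxcl2 at chr5:90903649-90903898 and Cxcl3 at chr5:90785851-90786100.
Cxcl1: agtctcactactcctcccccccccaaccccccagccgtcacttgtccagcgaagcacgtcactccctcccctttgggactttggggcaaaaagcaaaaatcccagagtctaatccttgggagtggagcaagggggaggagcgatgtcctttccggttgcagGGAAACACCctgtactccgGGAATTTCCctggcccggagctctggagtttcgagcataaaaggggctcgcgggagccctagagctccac
Cxcl2: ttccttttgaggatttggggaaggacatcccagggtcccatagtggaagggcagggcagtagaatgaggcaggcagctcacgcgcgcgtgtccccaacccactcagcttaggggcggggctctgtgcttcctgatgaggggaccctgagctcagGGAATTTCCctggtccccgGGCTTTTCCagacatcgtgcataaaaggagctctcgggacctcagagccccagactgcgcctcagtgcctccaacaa
Cxcl3: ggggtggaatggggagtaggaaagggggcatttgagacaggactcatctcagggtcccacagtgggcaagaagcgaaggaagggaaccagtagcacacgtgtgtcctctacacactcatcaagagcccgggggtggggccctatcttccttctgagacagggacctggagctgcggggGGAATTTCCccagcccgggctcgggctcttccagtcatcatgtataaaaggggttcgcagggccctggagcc
The motif matched 2 times for Cxcl1 (62 to 70 bases before the start on the forward strand, and 81 to 89 on the reverse), 2 times for Cxcl2 (88 to 96 and 69 to 77) and once for Cxcl3 (64 to 72). Of 32851 promoters of the same length, 1619 (4.93%) held it. A match describes letters and is no measurement of binding. Promoters of 8 of the 9 genes were searched.

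Cxcl2 was held by both neutrophil-like and macrophage/monocyte-like cells. Neutrophil-like cells had it at 16101, 20457 and 21787 CPM and macrophage/monocyte-like cells at 7517, 7604 and 8613 CPM. Neutrophil-like cells were higher in every library, and the 2 ranges do not overlap. Cxcl2 UMIs were found in 89.0%, 96.7% and 97.8% of neutrophil-like cells. In B cell-like cells, taken as a class that should lack the gene, its level was 160, 149 and 245 CPM with a UMI in 59.4%, 56.8% and 72.1% of cells. After every cell was thinned to 1000 UMIs, those shares became 75.5%, 89.6% and 88.2% in neutrophil-like cells and 12.6%, 12.8% and 19.1% in B cell-like cells. The median depth per cell was 4504, 5039 and 3975 UMIs in the neutrophil-like class and 7707, 6500 and 6715 in the B cell-like class. Neutrophil-like cells held 9.78%, 30.9% and 8.57% of all Cxcl2 UMIs of cells used, and the library labelled HHcy had the most such cells.

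The neutrophil-like class was made of 2 clusters that differed widely in these genes. One was led by Retnlg, G0s2 and Acod1 and the other by Camp, Ngp and Ltf, which are granule genes of maturing neutrophils. Cxcl2 stood at 32385, 27077 and 29981 CPM in the cluster led by Retnlg and at 2550, 3017 and 2999 CPM in the cluster led by Camp. Within the cluster led by Retnlg the control library was the highest of the 3, whereas over the whole class it was the lowest. That cluster made up 56.0%, 80.7% and 81.7% of the class. Cxcl3 was found mainly in the same cluster, at 203, 265 and 471 CPM, with 22.7, 2.83 and 0 CPM in the cluster led by Camp (13, 2 and 0 UMIs). Cxcl1 followed the same division, at 331, 159 and 187 CPM against 8.71, 8.49 and 15.9 CPM.

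Cxcl1 UMIs lay mostly in macrophage/monocyte-like cells (85.9%, 78.6% and 83.8%). Its level there was 439, 400 and 404 CPM, against 155, 118 and 135 CPM in the whole neutrophil-like class and 9.22, 6.29 and 12.5 CPM in B cell-like cells. A UMI was found in 30.4%, 27.1% and 32.8% of macrophage/monocyte-like cells. Fibroblast-like cells were close behind, with 361 CPM (83 cells) in the library labelled HHcy and 390 CPM (163 cells) in the western diet library, and their intervals overlapped those of macrophage/monocyte-like cells. Within the macrophage/monocyte-like class the subsets high in Cxcl1 included serous cavity macrophage-like cells, led by Prg4, Saa3 and Alox15 (990, 1192 and 889 CPM). Foamy macrophage-like cells, led by Spp1, Gpnmb and Fabp5, were high too (1309, 661 and 796 CPM, the middle value from 30 cells). A subset led by Cd72 and Nes held 26.0%, 12.5% and 30.9% of the class's Cxcl1 UMIs and 12.1%, 10.3% and 28.1% of its cells. For a subset led by Mmp13 and H2-M2 these shares were 5.08%, 6.86% and 1.01% of the UMIs and 2.60%, 4.55% and 0.997% of the cells. Non-classical monocyte-like cells were low at 62.8, 110 and 31.9 CPM. Of the macrophage/monocyte-like cells with a Cxcl1 UMI after thinning, 95.6%, 94.7% and 98.6% also had a Cxcl2 UMI, against 69.0%, 69.1% and 76.6% of the rest.

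Cxcl3 was the gene of the 9 that differed most between libraries in macrophage/monocyte-like cells. There it stood at 56.8, 8.98 and 54.3 CPM, from 952, 102 and 1616 UMIs. The control and western diet libraries did not differ beyond counting error, and the library labelled HHcy was low. It was detected in 3.90%, 2.59% and 7.02% of these cells, and 5, 5 and 9 cells held 50% of the UMIs. Foamy macrophage-like cells were its main holder in the control and western diet libraries, with 520 and 264 CPM, and 89.3% and 76.4% of the class's Cxcl3 UMIs. In the library labelled HHcy that subset had 30 cells, 66.5 CPM and 29.4% of the UMIs, while classical monocyte-like cells held 38.2%. Foamy macrophage-like cells were 6.12%, 2.68% and 10.3% of the class. In neutrophil-like cells the order of the libraries was another one, at 105, 193 and 328 CPM.

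**Figure D3:**
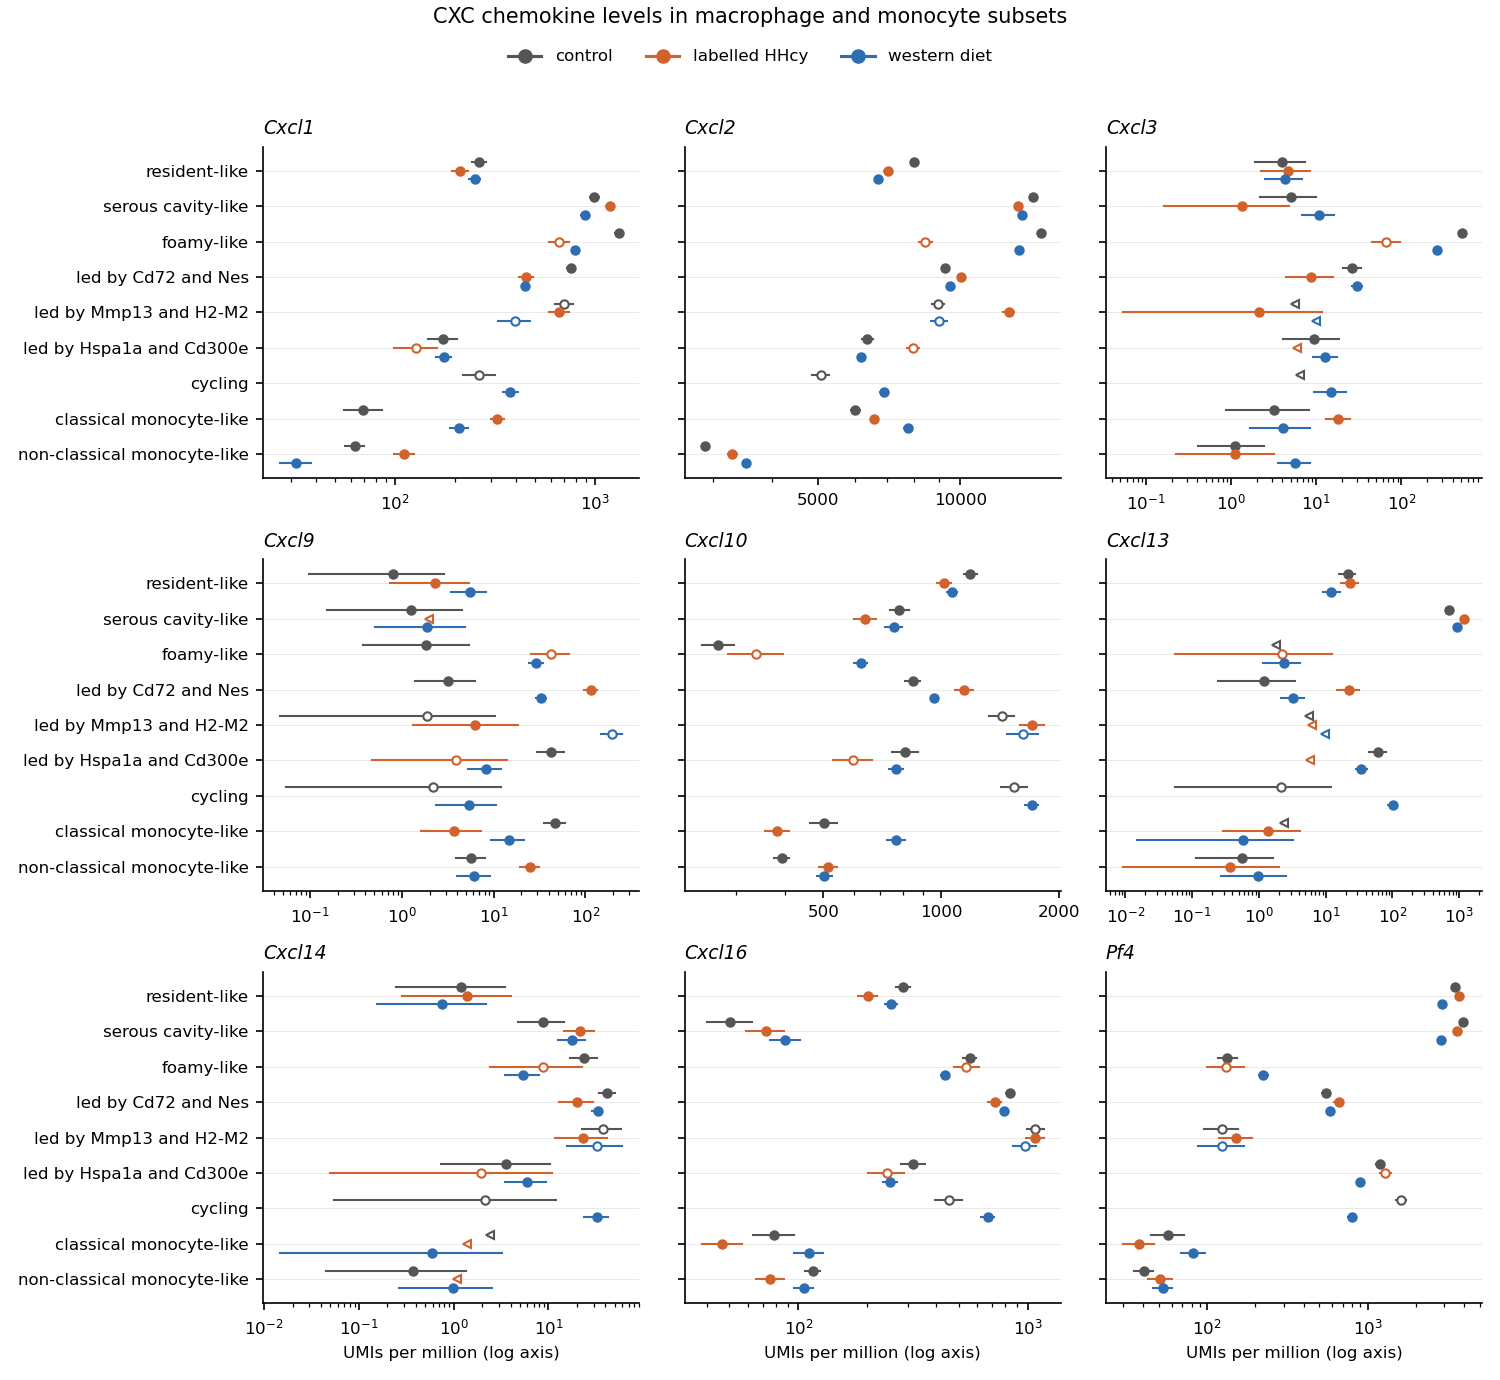
Level of each chemokine (CPM, log axis) in the subsets of macrophage/monocyte-like cells by library, with 95% Poisson intervals. Filled points are subsets of 50 cells or more, open circles subsets of 20 to 49 cells, and open triangles 0 UMIs drawn at the level of 3 UMIs. Cxcl13 stands apart in serous cavity macrophage-like cells (712, 1165 and 929 CPM) and Pf4 in the resident and serous cavity subsets.

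Cxcr2, the receptor for these ligands, was highest in neutrophil-like cells, at 366, 572 and 456 CPM with a UMI in 59.7%, 82.6% and 68.3% of cells. B cell-like cells held it at 0.28, 0.50 and 0.47 CPM. By cluster it stood at 639, 680 and 603 CPM in the cluster led by Retnlg and at 139, 289 and 119 CPM in the cluster led by Camp. Cxcr1, a second neutrophil receptor, was at 7.61, 38.2 and 11.3 CPM from 8, 98 and 14 UMIs, of which the cluster led by Retnlg held 8, 97 and 14.

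Cxcl9 (ENSMUSG00000029417, chr5:92321331-92328079) and Cxcl10 (ENSMUSG00000034855, chr5:92346638-92348889) lie side by side, and both are induced by interferon gamma. The 250 bases before each start (Cxcl9 at chr5:92328080-92328329 and Cxcl10 at chr5:92348890-92349139, both on the minus strand) are shown because the genes are compared below with interferon-induced genes. Capitals mark matches to GAAANNGAA (either strand), a core of the interferon-stimulated element, and to GGNNTTTCC as above.
Cxcl9: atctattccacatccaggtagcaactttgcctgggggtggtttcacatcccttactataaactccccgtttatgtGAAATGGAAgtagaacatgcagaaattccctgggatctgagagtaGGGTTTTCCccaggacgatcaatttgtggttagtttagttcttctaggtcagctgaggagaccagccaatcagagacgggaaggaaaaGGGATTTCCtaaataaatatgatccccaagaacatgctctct
Cxcl10: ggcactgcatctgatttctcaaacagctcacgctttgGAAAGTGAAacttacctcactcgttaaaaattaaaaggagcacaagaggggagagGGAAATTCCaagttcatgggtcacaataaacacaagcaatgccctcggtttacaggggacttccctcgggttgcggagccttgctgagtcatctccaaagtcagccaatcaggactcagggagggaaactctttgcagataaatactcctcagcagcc
The interferon motif lies 167 to 175 bases before the Cxcl9 start and 205 to 213 before the Cxcl10 start, and 2342 of 32851 promoters (7.13%) hold it. Among the other promoters searched it matched in Cxcl14 alone, 164 to 172 bases before the start. The kappaB motif matched 2 times for Cxcl9 (122 to 130 and 34 to 42) and once for Cxcl10 (150 to 158, reverse strand). TATAAA (either strand, not in capitals), held by 12.4% of promoters, matched in Cxcl3, Cxcl9 and Cxcl13. No match overlapped one of another motif in these windows.

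Cxcl10 was found broadly in macrophage/monocyte-like cells, at 698, 740 and 857 CPM with a UMI in 52.3%, 60.7% and 66.9% of cells. The western diet library was the highest and the control the lowest. Type 2 conventional dendritic cell-like cells had 178, 165 and 226 CPM and B cell-like cells 23.0, 23.3 and 38.6 CPM. Type 2 innate lymphoid cell-like cells had 258, 269 and 431 CPM (45, 51 and 55 cells), where macrophage markers summed to 4760, 3313 and 9132 CPM and their part in these values was not tested. Resident macrophage-like cells, led by Cd163, Lyve1 and Folr2, had 1188, 1019 and 1064 CPM. Cells led by Mmp13 and H2-M2 had 1428, 1705 and 1616 CPM (48, 51 and 26 cells). Non-classical monocyte-like cells (391, 514 and 503 CPM) were lower in every library than the subset led by Cd72 and Nes (846, 1144 and 961 CPM). Cxcl10 was held by many cells: 116, 82 and 209 cells made up 50% of its UMIs in the class.

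Cxcl9 was sparse. Its level in macrophage/monocyte-like cells was 8.47, 21.9 and 19.5 CPM, from 142, 249 and 579 UMIs, and it was detected in 1.19%, 2.85% and 2.49% of cells. Only 2, 4 and 3 cells held 50% of those UMIs. In the control library 58 of the 142 UMIs lay in 1 classical monocyte-like cell. Type 1 conventional dendritic cell-like cells had 14.8, 28.7 and 190 CPM with a UMI in 7.55%, 9.43% and 10.3% of cells, and 1 cell held 162 of the 330 UMIs of the western diet library. B cell-like cells were at 0.28, 0.47 and 0.85 CPM.

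Cxcr3, the receptor of both ligands, was at 42.2, 50.4 and 40.2 CPM in T cell-like cells and at 43.2, 38.4 and 43.7 CPM in type 1 conventional dendritic cell-like cells. The intervals of the 2 classes overlap in each library. B cell-like cells had 2.92, 2.19 and 6.13 CPM.

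Cxcl13 (ENSMUSG00000023078, chr5:95956939-95961068), the B cell attractant, came mostly from a small subset. Serous cavity macrophage-like cells numbered 116, 81 and 119, or 6.28%, 7.23% and 4.56% of macrophage/monocyte-like cells. They held 91.0%, 95.5% and 85.0% of that class's Cxcl13 UMIs. Their level was 712, 1165 and 929 CPM, with a UMI in 64.7%, 71.6% and 76.5% of cells. The control library was the lowest and the library labelled HHcy the highest. After thinning, the shares were 34.5%, 34.6% and 39.5%. Resident macrophage-like cells held 21.4, 23.1 and 12.2 CPM, and B cell-like cells 0.52, 0.97 and 0.85 CPM. Within the subset 13, 10 and 11 cells made up 50% of the UMIs.

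The subset carrying Cxcl13 was checked for stromal cells, since stromal cells of lymphoid tissue are a known source of this chemokine. Of 8 mesothelial markers 0, 1 and 2 were detected, summing to 0, 13.3 and 1.41 CPM. Of 11 fibroblast markers 8, 8 and 10 were detected (74.7, 74.6 and 105 CPM in sum). Pi16 held most of that sum, at 56.5, 47.3 and 52.7 CPM, and Pdgfra was at 0 in all. Of 7 markers of follicular and reticular stroma 3, 3 and 4 were detected (38.9, 24.6 and 31.6 CPM). Ltbr held most of it, at 35.8, 22.0 and 29.7 CPM, and Madcam1, Tnfsf11 and Coch were at 0 in all. Macrophage markers summed to 37018, 55062 and 46628 CPM. Of 10 endothelial markers 6, 5 and 5 were detected, summing to 1310, 1046 and 1145 CPM, with Esam, Tie1 and Emcn at 0 in all 3 libraries. Of that sum Fabp4, a fatty acid binding protein that macrophages also express, held 1293, 1033 and 1132 CPM, with a UMI in 96.6%, 97.5% and 95.8% of the cells. The part of these markers in the Cxcl13 values was not tested. In macrophage/monocyte-like cells with a Cxcl13 UMI after thinning, 81.2%, 85.7% and 77.0% also had a Pf4 UMI, against 33.7%, 39.8% and 35.7% of the rest. For Cxcl1 the shares were 54.2%, 31.4% and 31.1% against 13.7%, 11.3% and 13.1%.

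Cxcr5, through which Cxcl13 acts, was highest in B cell-like cells at 189, 149 and 189 CPM, with a UMI in 63.7%, 57.0% and 57.6% of them. Macrophage/monocyte-like cells had 1.79, 2.73 and 0.67 CPM. The ligand and its receptor thus stood in different classes in every library.

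Cxcl16 (ENSMUSG00000018920, chr11:70454389-70459984) was high in dendritic cells. Mature dendritic cell-like cells had 1041, 759 and 1063 CPM (77, 35 and 114 cells) with a UMI in 96.1%, 88.6% and 98.2% of cells. The HHcy-labelled value comes from fewer than 50 cells and did not enter the order of classes. Type 2 conventional dendritic cell-like cells had 344, 169 and 422 CPM, type 1 cells 252, 161 and 260 CPM, and macrophage/monocyte-like cells 334, 234 and 419 CPM. In each of these 4 classes the library labelled HHcy was the lowest. Among macrophage/monocyte-like subsets, cells led by Mmp13 and H2-M2 had 1081, 1076 and 975 CPM and those led by Cd72 and Nes 836, 720 and 787 CPM. Serous cavity macrophage-like cells had 50.2, 71.9 and 87.6 CPM, so the subset rich in Cxcl13 was poor in Cxcl16.

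The 2 proteases that shed Cxcl16 from the membrane, Adam10 and Adam17, were at 75.8, 76.4 and 72.5 CPM and at 114, 91.2 and 109 CPM in macrophage/monocyte-like cells. Cxcr6, the receptor, was highest in type 2 innate lymphoid cell-like cells (338, 394 and 354 CPM; 45, 51 and 55 cells). T cell-like cells had 192, 145 and 165 CPM and B cell-like cells 0.47, 0.34 and 0.57 CPM.

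Cxcl14 (ENSMUSG00000021508, chr13:56288643-56296811) was low everywhere, at 11.1, 6.78 and 14.2 CPM in macrophage/monocyte-like cells from 187, 77 and 421 UMIs. The library labelled HHcy was the lowest, and its interval did not meet those of the others. Its log2 ratio to the control, -0.72, was 0.55 in the thinning used as an alternative. A separate random thinning left a Cxcl14 UMI in 18 of 1840 control macrophage/monocyte-like cells. It left one in 6 of 1117 such cells of the library labelled HHcy, again a lower share than in the control. The thinned values rest on few cells and do not settle the direction. In each library the subset led by Cd72 and Nes had a higher level than the class as a whole, at 41.8, 19.9 and 32.9 CPM, and held 56.1%, 32.5% and 65.1% of the UMIs. The subset led by Mmp13 and H2-M2 had 37.3, 23.2 and 32.7 CPM from 20, 11 and 10 UMIs. In the library labelled HHcy serous cavity macrophage-like cells held 32 of the 77 UMIs, against 25 for the subset led by Cd72 and Nes. Neutrophil-like cells had 0 UMIs, which allows up to 2.85, 1.17 and 2.41 CPM, and type 1 conventional dendritic cell-like cells had 0 too, which allows up to 1.11, 1.62 and 1.72 CPM.

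Pf4 (ENSMUSG00000029373, chr5:90772435-90773383) was high in resident macrophages as well as in platelets. Macrophage/monocyte-like cells had 1118, 1363 and 937 CPM, with a UMI in 57.3%, 62.3% and 64.5% of cells, against 20.6%, 22.6% and 16.9% of B cell-like cells. After thinning these shares were 34.9%, 41.3% and 36.7% against 3.41%, 3.09% and 2.40%. Resident macrophage-like cells had 3481, 3682 and 2901 CPM and serous cavity macrophage-like cells 3934, 3588 and 2848 CPM. Both subsets were lowest in the western diet library. Foamy macrophage-like cells (134, 131 and 224 CPM) and non-classical monocyte-like cells (40.5, 51.1 and 53.0 CPM) were low in comparison. Type 2 innate lymphoid cell-like cells had 327, 434 and 634 CPM of Pf4. There 3, 8 and 8 of 9 other platelet markers were detected, summing to 159, 467 and 405 CPM, and their part in the Pf4 values was not tested, nor was that of the macrophage markers given for Cxcl10.

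Platelet genes were read beside Pf4. The western diet library held 29 platelet-like cells, with Pf4 at 10652 CPM from 232 UMIs and all 9 platelet markers detected, summing to 20523 CPM. Platelet-like cells held 0.27%, 0.29% and 0.74% of the Pf4 UMIs of cells used. The same markers summed to 20.2, 6.46 and 33.7 CPM in resident macrophage-like cells. Ppbp, the other platelet chemokine, was at 7668 CPM in the platelet-like cells and at 5.07, 3.96 and 7.73 CPM in macrophage/monocyte-like cells.

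The other CXC ligand genes counted were 5. Cxcl12, which retains leukocytes through Cxcr4, was a fibroblast gene at 785, 739 and 1445 CPM in that class (30, 83 and 163 cells). Cxcl5 reached 29.6 CPM in western diet fibroblast-like cells from 43 UMIs, of which 39 lay in 1 cell. Cxcl15 and Cxcl17 had 0 to 2 UMIs a library. Cxcl11 was not analysed here. Cxcr4 was at 389, 392 and 372 CPM in B cell-like cells and at 424, 223 and 222 CPM in macrophage/monocyte-like cells. The scavenging receptor Ackr3 was highest in fibroblast-like cells (109, 433 and 204 CPM), and Ackr1 had 20, 39 and 48 UMIs over all barcodes of a library.

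**Figure D4:**
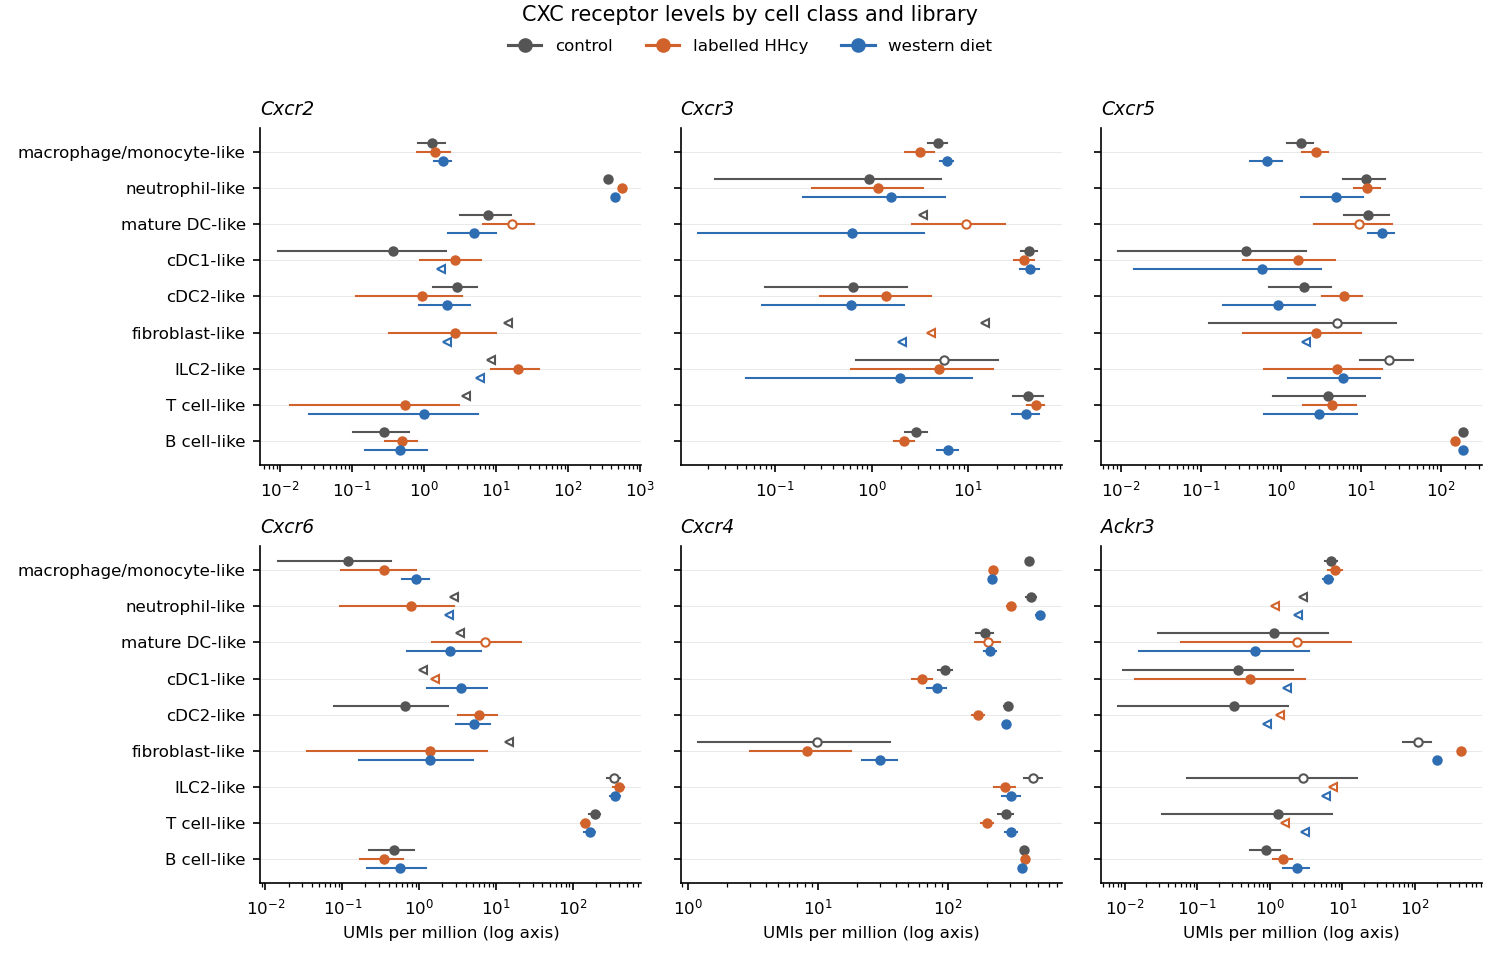
Level of the CXC receptors (CPM of the class, log axis) by cell class and library, with 95% Poisson intervals and the same symbols as for the ligands. Cxcr2 stands highest in neutrophil-like, Cxcr5 in B cell-like and Cxcr6 in type 2 innate lymphoid cell-like cells.

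The libraries were then compared within macrophage/monocyte-like cells. A gene counts as past 2-fold when its level differs by at least that much and it has at least 20 UMIs over both libraries. With 1 library per group this is a rule of size with no test. The largest subset differed between libraries: non-classical monocyte-like cells in the control (35.3%), resident macrophage-like cells in the library labelled HHcy (30.9%) and the subset led by Cd72 and Nes in the western diet library (28.1%). Both comparisons use the same control library, so their values are not independent.

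From the control to the library labelled HHcy, 3 of the 9 chemokines were past 2-fold, against 3.36% of the 12315 genes compared. Cxcl3 was 6.32-fold lower (log2 ratio -2.66, 95% counting interval -2.97 to -2.36). Cxcl9 was higher by 1.37 (1.07 to 1.68) and Cxcl13 by 1.12 (1.02 to 1.22) on the log2 scale. The other 6 lay between -0.72 (Cxcl14) and 0.29 (Pf4), and the median of the 9 was 0.02 against -0.05 over all genes. From the control to the western diet library only Cxcl9 was past 2-fold, higher by 1.20 (0.93 to 1.48), against 3.73% of 13034 genes. There Cxcl10 was at 0.30, Cxcl16 at 0.33, Pf4 at -0.26 and Cxcl3 at -0.06 (-0.18 to 0.05). Between the library labelled HHcy and the western diet library 3 of 9 were past 2-fold: Cxcl13 higher by 1.05, and Cxcl3 and Cxcl14 lower, at -2.60 and -1.06. The background there was 5.53%.

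**Figure D5:**
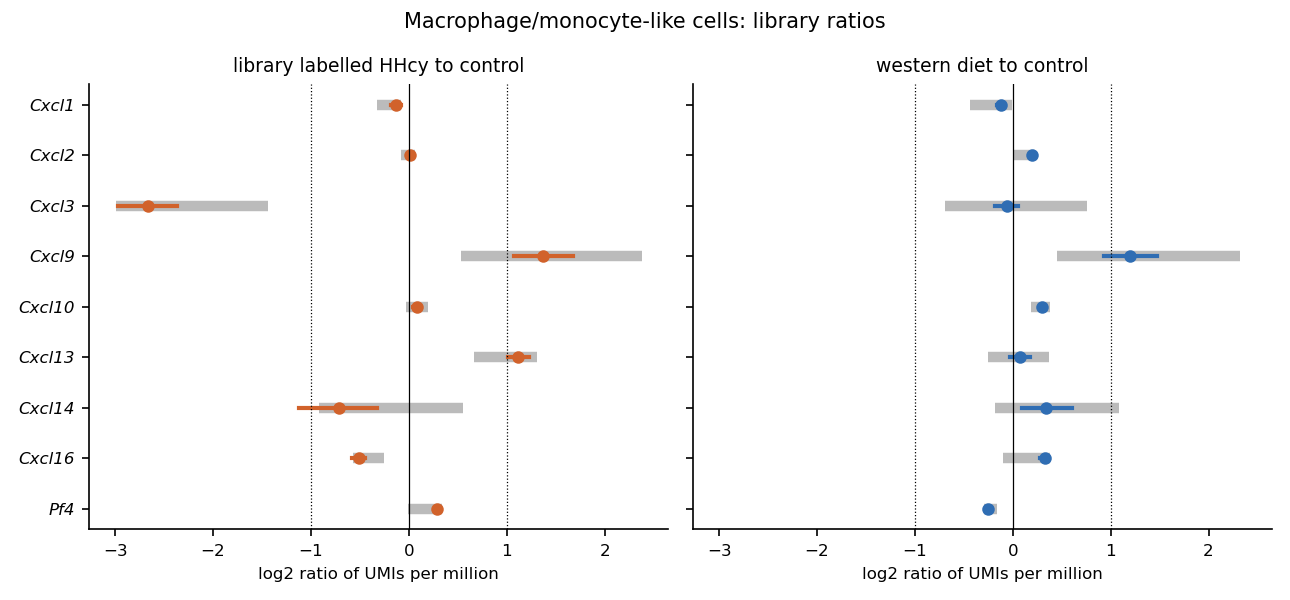
Log2 ratio of each chemokine's level in macrophage/monocyte-like cells, library labelled HHcy to control and western diet to control. Points are the reported values with lines for 95% counting intervals, grey bars span 12 alternative analyses, and dotted lines mark 2-fold. Cxcl3 lies past 2-fold over the whole grey bar in the library labelled HHcy, and the bars of Cxcl9 and Cxcl13 cross the line.

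The Cxcl3 difference held its direction in every alternative. Its log2 ratio ran from -2.99 to -1.44 over 12 alternatives, the smallest with doublets kept, and was -2.23 when both libraries were given the same mix of subsets. Foamy macrophage-like cells, with 89.3% of the class's Cxcl3 UMIs in the control, weigh most in that last value. They numbered only 30 in the library labelled HHcy, too few to be compared as a subset. By subset it was lower in the subset led by Cd72 and Nes (26.3 to 8.74 CPM; log2 ratio -1.59, -2.66 to -0.66) and higher in classical monocyte-like cells (3.19 to 18.1 CPM; 2.51, 1.04 to 4.45, from 4 and 39 UMIs). The background for these subsets was 6.07% and 5.30%. In neutrophil-like cells Cxcl3 was higher in the western diet library by 1.65 (1.34 to 1.97) on the log2 scale, where 4 cells held 50% of its UMIs.

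The HHcy-labelled log2 ratio of Cxcl13 to the control was 1.12 over the class and 0.71 (0.60 to 0.82) in serous cavity macrophage-like cells, the subset that carries the gene. The western diet ratio was 0.07 over the class and 0.38 (0.28 to 0.49) in that subset, where neither library was past 2-fold. For the whole class the HHcy-labelled ratio was past 2-fold in 8 of 12 alternatives. It was 0.67 with the same mix of subsets, 0.69 without cells holding 10 or more Apoe UMIs, 0.85 after thinning and 0.88 without the 10 cells of each library richest in Cxcl13. In the library labelled HHcy, macrophage/monocyte-like cells with 10 or more Apoe UMIs had 366 CPM of Cxcl13 and those under 10 had 120. Within the serous cavity subset the values were 1066 (36 cells) and 1239 CPM (45 cells).

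The cells that went against the Apoe label differed in other chemokines too. In the library labelled HHcy, macrophage/monocyte-like cells with 10 or more Apoe UMIs (187 cells) had 2598 CPM of Pf4 and those under 10 (934 cells) had 1116, which is close to the 1118 of the control. For Cxcl1 the values were 702 and 340 CPM, for Cxcl2 10248 and 7075 CPM, for Cxcl10 1005 and 687 CPM, and for Cxcl16 186 and 244 CPM. Cxcl3 was low in both, at 6.34 and 9.51 CPM, and Cxcl9 stood at 19.0 and 22.5 CPM. Of the 187 cells, 105 were resident and 36 serous cavity macrophage-like. Within resident macrophage-like cells Pf4 was at 3750 CPM (105 cells) and 3648 CPM (241 cells), and Cxcl1 at 256 and 190 CPM. Within serous cavity macrophage-like cells Pf4 was at 3078 CPM (36 cells) and 3973 CPM (45 cells), and Cxcl1 at 1670 and 831 CPM. Without the Apoe-rich cells, 2 of 9 chemokines were past 2-fold from the control, Cxcl3 and Cxcl9. The share over all genes was 3.36% with those cells in and is not given here without them, so the 2 of 9 has no background of its own.

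The Cxcl9 differences lay in few cells. In the subset led by Cd72 and Nes its level was 3.18, 114 and 33.1 CPM, a log2 ratio to the control of 5.17 (4.15 to 6.41) and 3.38 (2.38 to 4.60), against backgrounds of 6.07% and 5.23%. There 2 cells held 50% of the UMIs in each library. In all, 4 of 9 chemokines were past 2-fold in that subset in the library labelled HHcy (Cxcl9 and Cxcl13 higher, Cxcl3 and Cxcl14 lower) and 2 of 9 in the western diet library (Cxcl9 and Cxcl13 higher). Of the 28 Cxcl13 UMIs behind the former, 24 lay in 1 cell. The western diet ratio of Cxcl13 there (1.44, -0.26 to 3.81, from 3 and 27 UMIs) has an interval that includes 0. Western diet foamy macrophage-like cells had 135 Cxcl9 UMIs, of which 133 lay in 1 cell, and the control had 3. For the class the Cxcl9 ratio was past 2-fold in 11 of 12 alternatives for each library. The exception was naming each cell by its own markers, with 0.53 (labelled HHcy) and 0.45 (western diet).

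Other classes were read against their own backgrounds. In neutrophil-like cells Cxcl10 was past 2-fold in both libraries, higher by 1.05 (0.62 to 1.5) and by 1.15 (0.68 to 1.63), from 53, 268 and 139 UMIs. The background was 15.0% and 7.05%. Within the cluster led by Retnlg it stood at 54.4, 111 and 98.1 CPM, and within that led by Camp at 47.1, 86.3 and 143 CPM. Cxcr1 was higher in neutrophil-like cells of the library labelled HHcy (2.33, 1.29 to 3.58), while Cxcr2 at 0.64 (0.48 to 0.81) was not past 2-fold. Within the cluster led by Retnlg Cxcr1 stood at 16.8, 52.1 and 16.2 CPM. In type 2 conventional dendritic cell-like cells Cxcl16 was lower in the library labelled HHcy (-1.03, -1.20 to -0.85), as were Cxcl1, Cxcl3 and Cxcl9, with a background of 5.47%. There 90 of the 96 control Cxcl9 UMIs lay in 1 cell. Classical monocyte-like cells had Cxcl1 at 69.4, 324 and 210 CPM, past 2-fold in both libraries at 2.22 (1.90 to 2.56) and 1.60 (1.25 to 1.95), against 5.30% and 5.45% of genes. Cxcl9 was lower in both, where 58 of 58 control UMIs lay in 1 cell. Mature dendritic cell-like cells were compared for western diet alone, where Cxcl1, Cxcl2, Cxcl10 and Pf4 were higher and Cxcl9 lower, 5 of 8 genes against a background of 9.95%. In that library 1 cell held 241 of the 449 Cxcl1 UMIs, and 2 cells held 50% of the Cxcl2 UMIs. Foamy macrophage-like cells in the western diet library had Cxcl10 higher by 1.21 (1.07 to 1.36; 269 to 623 CPM), with 21 cells holding 50% of its UMIs. Cxcl9 was also higher there and Cxcl14 lower (39 and 25 UMIs), 3 of 8 genes against 5.43%.

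The remaining comparisons with the control gave 0 to 3 of the chemokines each. In type 1 conventional dendritic cell-like cells Cxcl2 (564 to 225 CPM) and Cxcl10 (72.4 to 34.6 CPM) were lower in the library labelled HHcy, 2 of 6 genes against 3.86%. Cxcl1, Cxcl3 and Cxcl9 were higher there in the western diet library, 3 of 7 against 5.44%, and 1 cell held 110 of the 127 Cxcl1 UMIs. Type 2 cells of the western diet library had Cxcl3 and Cxcl9 lower, 2 of 7 against 3.84%. In serous cavity macrophage-like cells Cxcl14 was higher in the library labelled HHcy (8.79 to 21.3 CPM; 1.28, 0.33 to 2.30), 1 of 7 against 5.67%. It was also higher in the western diet library (17.9 CPM; 1.03, 0.11 to 2.02), together with Cxcl3 (5.02 to 10.8 CPM; 1.11, -0.10 to 2.48), 2 of 8 against 4.95%. Resident macrophage-like cells had 0 of 7 past 2-fold in the library labelled HHcy (background 3.82%) and only Cxcl9 in the western diet library (2 and 22 UMIs; 1 of 8 against 3.13%). In non-classical monocyte-like cells Cxcl9 was higher in the library labelled HHcy (2.11, 1.48 to 2.78; 1 of 6 against 3.14%) and Cxcl3 in the western diet library (6 and 23 UMIs; 1 of 7 against 3.33%). The subset led by Hspa1a and Cd300e was compared for western diet alone, with Cxcl9 lower (1 of 9 against 6.04%), where 35 of 36 control UMIs lay in 1 cell. T cell-like cells had Cxcl1 lower in the library labelled HHcy (14 and 13 UMIs; 1 of 5 against 6.59%) and 0 of 5 past 2-fold in the western diet library (5.61%). B cell-like cells had 0 of 8 (5.61%) and only Cxcl3 of 7 (21 and 23 UMIs; 3.35%).

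Genes that respond to the same signals were also read in macrophage/monocyte-like cells. Of 22 early genes of the NF-kappaB pathway, which drives Cxcl1, Cxcl2 and Cxcl3, 0 were past 2-fold in either library. The share over all genes was 3.36% (labelled HHcy) and 3.73% (western diet), so a count of 0 among 22 is near it. Their median log2 ratio was -0.01 (labelled HHcy) and -0.14 (western diet). Of 20 genes induced by interferon gamma, 2 were higher and 0 lower in the library labelled HHcy. These genes were Iigp1, a GTPase of cell-autonomous defence (15.9 to 33.9 CPM; 1.10, 0.87 to 1.33), and the serpin Serpina3g (4.83 to 14.1 CPM; 1.54, 1.15 to 1.95). In the western diet library only Iigp1 was higher (32.3 CPM; 1.03). Of 18 type I interferon genes 0 were past 2-fold in the library labelled HHcy (median 0.16). In the western diet library 3 were higher and 0 lower: Ifit3 (62.6 CPM; 1.06), Ifit3b (1.07) and Ifi44 (1.02). All 18 lay above 0 there, with a median of 0.42 against -0.02 over all genes. Over all genes of the class, 1.52% (labelled HHcy) and 2.10% (western diet) were at least 2-fold higher. In neutrophil-like cells 9 of 18 interferon gamma genes and 5 of 17 type I genes were higher in the library labelled HHcy, against 2.90% of all genes, with medians of 0.94 and 0.91 against -0.25. In their western diet counterparts it was 1 of 14 and 3 of 17, against 2.18%.

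Genes switched on by tissue digestion summed to 31553, 28488 and 28844 CPM in macrophage/monocyte-like cells and to 19342, 15645 and 20776 CPM in neutrophil-like cells. Their part in the levels of the chemokines was not tested. Neutrophil markers summed to 468, 686 and 394 CPM in macrophage/monocyte-like cells, against 252344, 246666 and 204986 CPM in neutrophil-like cells. Macrophage markers summed to 6409, 7642 and 6808 CPM in neutrophil-like cells and to 20673, 29696 and 23945 CPM in their own class.

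The genes with the most similar pattern were found over 93 groups of cells (a cluster or subset in 1 library, at least 30 cells), by Pearson's r of log2(CPM + 10). These groups share libraries and depth, so r is a description. For Cxcl2 they were Cd14, Ccrl2 and C5ar1 (0.96, 0.94 and 0.93), all of them surface proteins of myeloid cells. For Pf4 they were C1qc, C1qa and Rab11fip5 (0.91, 0.91 and 0.90), and Cxcl10 was close to Csf1r and Ifi207 (each 0.89). Cxcl16 was most like Rtn4, Slc8a1 and Aif1 (each 0.86). Cxcl13 was most like Wnt2 (0.84), Prg4 and Tgfb2 (each 0.80), and Cxcl1 most like Lamp1, Ctsb and Pla2g15 (0.82, 0.82 and 0.81). Cxcl14 was close to Cdk18 and Ch25h (0.77 and 0.74) and Cxcl3 to Il1rn, the interleukin-1 receptor antagonist, Ptgs2os2 and Gadd45b (0.72, 0.65 and 0.65). Cxcl9 had no close match, with Cst3, Anpep and Ifi205 at 0.54, 0.54 and 0.53.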

How the data were processed

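CD45-sorted aortic cells were profiled with droplet 3′ sequencing, 1 library per group. The deposited matrices hold raw UMI counts per gene and barcode. The file headers name Cell Ranger 4.0.0, the submitters' processing notes name Cell Ranger 2.2.0 and the mm10 build, and which made the matrices was not settled. Barcodes with at least 200 genes and at most 10% mitochondrial UMIs were kept. Barcodes with markers of at least 2 of 5 lineages were removed as doublets, with limits set at valleys of the distributions after seeing the data. The 17431 cells left were clustered jointly without batch correction (2000 variable genes, 30 principal components, 20 neighbours, Leiden resolution 1, then 0.5 within macrophage/monocyte-like cells, seed 1) and named from marker lists. CXC genes were kept out of variable genes and markers, as were, after seeing the data, gene models with Gm numbers, Malat1, Neat1, AY036118 and mitochondrial ribosomal genes. Unnamed clusters (360, 375 and 387 cells) entered no class.

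Counts were summed per class and library and scaled to 1000000 UMIs (CPM), with exact Poisson intervals. Ratios have exact conditional binomial intervals and shares Clopper-Pearson intervals, for counting error only. No p-value was computed, since cells are not replicates. Classes were compared from 50 cells per library, genes from 20 UMIs. Thinning to 1000 UMIs left out 370 cells. The ratio script was checked on simulated data with known folds. Genes named besides the 9 chemokines were those of each list past 2-fold in macrophage/monocyte-like cells (at most 3 a list and direction), the CXC ligands and receptors in their highest class, and the 3 genes of most similar pattern among those with at least 200 UMIs. Some of these genes are not reported here. The chemokines, lists and markers were chosen with earlier results of these data known. Promoter sequences are from RefSeq (GRCm38.p6). Alternatives covered cell filters, doublets, clustering, naming, depth, scaling, low counts, top cells, subset mix and Apoe. Tools were Python 3.11.15, numpy 2.4.6, scipy 1.17.1, pandas 2.3.3, scikit-learn 1.9.0, leidenalg 0.10.2, igraph 0.11.9 and matplotlib 3.10.9.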

Additional observations from a re-analysis of the deposited data

How the results depend on the processing

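Of 216 single ratios recomputed in macrophage/monocyte-like cells, 130 moved by less than their counting interval, 86 moved further and 0 that were past 2-fold changed direction. The number of chemokines highest in macrophage/monocyte-like cells of all libraries, 3 as reported, was 1 (Cxcl1) when up to 20% mitochondrial UMIs were allowed, where 53 platelet-like cells of the western diet library led Cxcl10 and Pf4. It was 5 without the top cell of each class, chosen after seeing the data. The number past 2-fold in the western diet library, 1 as reported, was 0 when each cell was named by its own markers and 2 (Cxcl9 and Cxcl14) after thinning. For the library labelled HHcy it was 2 or 3 under every alternative, and 2 without cells holding 10 or more Apoe UMIs, also chosen after seeing the data. Shares over all genes under the alternatives are not given here. Scaling by size factors took away median log2 shifts of -0.042 (labelled HHcy) and -0.026 (western diet), which raised the ratios by as much. Among ratios under 2-fold, that of Cxcl14 in the library labelled HHcy, -0.72 as reported, was 0.55 after thinning, and the western diet ratio, 0.34 as reported, was -0.18 with the same mix of subsets. In a separate random thinning only 18, 6 and 27 macrophage/monocyte-like cells (control, labelled HHcy, western diet) had a Cxcl14 UMI. These were 0.98%, 0.54% and 1.04% of cells, with the library labelled HHcy below the control and the western diet library close to it. The thinned ratios of Cxcl14 therefore rest on few cells and differ between draws. Smaller ratios of Cxcl2 (both libraries), of Cxcl10 and Pf4 (labelled HHcy) and of Cxcl3, Cxcl13 and Cxcl16 (western diet) also crossed 0 in at least 1 alternative. The causes were not tested. No paired analysis was possible because each group has 1 library. Differences between mice cannot be told apart from differences between treatments, and values of Cxcl3, Cxcl9, Cxcl13 and Cxcl14 rest on few cells.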
